A study of Mus musculus with 8 samples.

Results

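Growth factor receptor tyrosine kinases, 10 genes in all, were followed here through undifferentiated pleomorphic sarcoma (UPS) of the mouse hind limb: Pdgfra, Fgfr1, Fgfr2, Fgfr4, Egfr, Erbb2, Erbb3, Met, Axl and Ddr2. They were taken by gene symbol from the 26667 genes of the deposited count table, and all 10 had a row in it. All 10 also passed the filter on low counts that left 14867 genes for testing. UPS is a soft tissue sarcoma made of spindle-shaped and multinucleated cells with no clear line of differentiation. RNA-seq was carried out on 8 tumours, 1 library per tumour, to ask which genes respond to loss of HIF-2α in the tumour cells.

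Tumours of the KP group (KP 5 to KP 8, n = 4) came from mice carrying Trp53 fl/fl, from which Cre recombinase deletes the tumour suppressor p53, along with a further allele that both groups share. Tumours of the KPH2 group (KPH2 1 to KPH2 4, n = 4) carried the same alleles and Epas1 fl/fl, so that Cre also deletes the gene for HIF-2α, an oxygen-regulated transcription factor. Both groups were on a mixed 129/C57BL/6 background, and both received an adenovirus expressing Cre (Ad-Cre) in the hind limb muscle. Recombination takes place in infected cells and their descendants, so host cells that were not infected, such as those of blood vessels and blood, keep Epas1 in both groups. RNA came from fixed, paraffin-embedded sections of whole tumours, in which fewer cells of a type and less RNA per cell cannot be told apart.

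Receptor tyrosine kinases sit in the plasma membrane, bind a growth factor outside the cell and phosphorylate tyrosines inside it, which recruits adaptors that feed the RAS and PI3K pathways. PDGFRα marks mesenchymal progenitors and fibroblasts, FGFR1 and DDR2 are widely expressed in mesenchymal cells, FGFR4 is expressed in myoblasts, and EGFR and MET are best known from epithelia. AXL binds GAS6 and is often high in mesenchymal tumours.

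Depth ran from 6463221 to 13155510 counts per tumour, and a ribosomal RNA repeat, Rn45s, was the most counted gene in 7 of 8 libraries, all but KP 6. It took 3.58% to 9.83% of counts in the KPH2 tumours and at most 2.79% in the KP tumours, without overlap, and its part in the differences between the groups was not tested. No pair of libraries agreed within sampling noise. The study set aside 1 knockout tumour, which it took for a technical outlier, and KPH2 1 is the tumour missing from the smaller of the deposited normalised tables, so KP 5 to KP 8, taken as the study's KP samples, were compared with KPH2 2 to KPH2 4 and KPH2 1 is given apart. The study's own text is not uniform on the number of tumours per group, so this choice rests on the deposited table. Levels are counts per 1e+06 counts of the library (CPM), scaled over all 8 libraries by TMM, a normalisation for library composition. Epas1, the deleted gene, was counted at 59.6, 82.2, 85.5 and 85.1 CPM across KP 5 to KP 8, at 54.2, 37.8 and 42.4 CPM in KPH2 2 to KPH2 4, and at 32.0 CPM in KPH2 1. All 4 KPH2 tumours lay below all 4 KP tumours, but the log2 fold change over 7 tumours, −0.81 (SE 0.19), did not pass the threshold (adjusted p = 0.0742, edgeR quasi-likelihood test). It passed with DESeq2 over 7 and over 8 tumours (adjusted p = 0.0115 and 0.00562) and with edgeR without KP 5 (adjusted p = 0.0442). The counts cover the whole gene, and its deleted part was not counted apart.

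The regions just before the transcription starts of 3 receptor genes are shown. Pdgfra was the receptor gene that passed the test, and Met and Fgfr4 hold ACGTG before the start. ACGTG is a form of the hypoxia-inducible factor (HIF) core motif, and other forms of it were not searched. The sequences come from RefSeq on build GRCm38.p6, each holds the 250 bases before the start on the gene's own strand, here the plus strand for all 3, and capitals mark the core ACGTG on either strand. They lie at chr5:75152001-75152250 (Pdgfra), chr6:17463707-17463956 (Met) and chr13:55152568-55152817 (Fgfr4). The starts used are those of the promoter table, and for Pdgfra and Met they lie inside the gene spans given further on, which begin upstream of these windows.
Pdgfra: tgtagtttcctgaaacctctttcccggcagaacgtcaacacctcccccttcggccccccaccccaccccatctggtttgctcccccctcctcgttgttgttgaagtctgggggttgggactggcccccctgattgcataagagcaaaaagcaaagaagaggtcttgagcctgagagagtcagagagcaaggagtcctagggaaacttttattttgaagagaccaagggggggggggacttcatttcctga
Met: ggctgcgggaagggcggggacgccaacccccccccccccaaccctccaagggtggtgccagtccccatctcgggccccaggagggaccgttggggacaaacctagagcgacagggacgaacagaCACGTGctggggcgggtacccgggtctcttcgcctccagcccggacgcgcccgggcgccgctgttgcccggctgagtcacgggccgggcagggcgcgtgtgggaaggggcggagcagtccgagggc
Fgfr4: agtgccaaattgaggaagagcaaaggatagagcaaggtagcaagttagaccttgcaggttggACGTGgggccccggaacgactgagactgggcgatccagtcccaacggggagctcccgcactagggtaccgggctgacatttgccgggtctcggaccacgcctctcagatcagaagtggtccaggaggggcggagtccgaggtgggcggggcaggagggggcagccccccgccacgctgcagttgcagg
The Met match begins 126 bases before the start and reads CACGTG, which is also an E-box and holds the core on both strands, so it was counted as 1 site. The Fgfr4 match begins 188 bases before the start. With the first 50 transcribed bases added, windows of 300 bases were given for 8 of the 10 receptor genes, the exceptions being Fgfr1 and Erbb3. ACGTG was found in 3 of these 8 windows, the third being Fgfr2, where CACGTG begins at base 29 of the transcript. Of all 32851 windows of this length, 19.6% held it. The GC box GGGCGG was in 4 of 8 windows and in 35.7% of all windows, TATAAA in 1 of 8 (Ddr2) and in 13.6%, and TGACGTCA in 0 of 8 and in 1.79%, all on either strand. Among the receptor genes GC content of the window ran from 39% in Ddr2 to 75.7% in Met, around a median of 52.7% over all windows. A match of letters is a description of the sequence only, and binding was not measured.

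Levels were first compared between receptors per kilobase of exon (FPKM), since longer transcripts collect more counts. In KP tumours Axl had the highest level at 216 ± 51.3 FPKM (SD, n = 4), followed by Pdgfra at 142 ± 49.9, Fgfr1 at 97.8 ± 53.5 and Ddr2 at 73.2 ± 18.9 FPKM. The ranges of these 4 overlapped from each to the next. Met at 22.8 ± 6.61 and Egfr at 15.7 ± 6.17 FPKM formed a middle tier, and the step from Ddr2 down to Met was free of overlap. Erbb2 at 3.97 ± 1.43, Fgfr2 at 2.50 ± 1.81, Erbb3 at 0.496 ± 0.331 and Fgfr4 at 0.433 ± 0.776 FPKM came last, below Egfr without overlap but overlapping from each to the next.

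In KPH2 2 to KPH2 4 the order was changed mainly by Pdgfra, which moved from place 2 to place 5 at 35.2 ± 3.52 FPKM (SD, n = 3), next to Met at 36.0 ± 8.59 FPKM. Axl stayed first at 259 ± 61.1, above Fgfr1 at 89.9 ± 6.16 FPKM without overlap. Ddr2 at 64.8 ± 19.3 FPKM overlapped Fgfr1 and lay above Met. Egfr was at 9.06 ± 4.61, Erbb2 at 4.08 ± 0.755, Erbb3 at 2.38 ± 0.691, Fgfr4 at 1.65 ± 2.08 and Fgfr2, last of the 10, at 0.476 ± 0.281 FPKM. Among these 5, Erbb3 overlapped Fgfr4 and Fgfr4 overlapped Fgfr2, whereas Egfr, Erbb2 and Erbb3 were apart from one another. The summed level of the 10 receptors ran from 443 to 739 FPKM in KP, from 438 to 586 FPKM in KPH2 2 to KPH2 4, and was 446 FPKM in KPH2 1, so the sums overlapped.

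Over 7 tumours 1 of the 10 receptor genes passed an adjusted p of 0.05 (edgeR, Benjamini-Hochberg over all tested genes), against 292 of 14867 genes or 1.96% of all tested. That gene, Pdgfra, was lower in KPH2, where 0.720% of all tested genes passed, and 0 receptor genes passed as higher, where 1.24% of all did. At an unadjusted p under 0.05, 4 of the 10 passed, Pdgfra and Fgfr2 lower and Erbb3 and Met higher, against 17.8% of all tested genes. DESeq2 called 3 of the 9 receptor genes to which it gave a p-value (Pdgfra, Fgfr2 and Erbb3), against 5.40% of the 21743 genes to which it gave a p-value. Of the 10 log2 fold changes 5 were positive and 5 negative, with a median of −0.05 beside −0.02 over all tested genes.

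**Figure D1:**
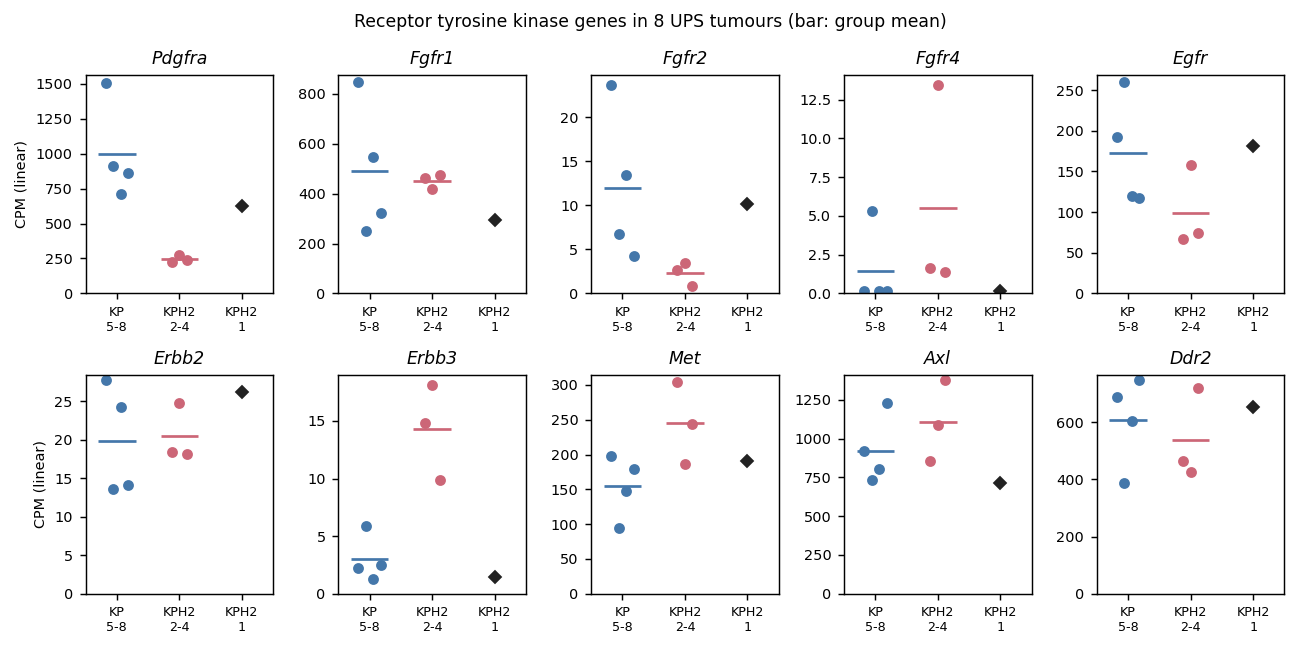
Level of each of the 10 receptor genes in CPM (linear axis from 0) in the 4 KP tumours (blue), KPH2 2 to KPH2 4 (red) and KPH2 1 (black diamond), with a bar at each group mean. Pdgfra falls from 996 to 247 CPM with no overlap and Erbb3 stands at 14.3 against 2.99 CPM, while KPH2 1 lies within the KP range in 8 of the 10 panels.

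The RNA of PDGFRα, the receptor for PDGF-A and PDGF-C that drives growth of mesenchymal progenitors, was lower in KPH2. Pdgfra (Entrez Gene 18595, GRCm38.p6, as for all positions here, chr5:75151322-75198206) stood at 1503, 911, 709 and 859 CPM across KP 5 to KP 8, whereas KPH2 2 to KPH2 4 held 227, 274 and 238 CPM. KPH2 1 held 627 CPM. Every KP tumour was above every KPH2 tumour, and KPH2 1 lay between both groups and nearer to KP. The mean was 996 ± 349 CPM (SD, n = 4) for the KP tumours against 247 ± 24.7 CPM (SD, n = 3) for KPH2 2 to KPH2 4, a log2 fold change of −2.02 (SE 0.27, 95% confidence interval −2.64 to −1.40, adjusted p = 0.0183 by edgeR), or 4.07-fold. An exact permutation test over tumours, two-sided, gave p = 0.029, the smallest that 35 splits allow. With KPH2 1 added the log2 fold change was −1.54 (SE 0.39) and did not pass (adjusted p = 0.16 by edgeR). It was also not called without KPH2 2 (−1.96, adjusted p = 0.0718 by edgeR), and it had an adjusted p of 0.211 at −2.40 when a muscle fibre score was a covariate.

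Pdgfrb, the sister receptor of pericytes and fibroblasts, had a log2 fold change of −0.30 (SE 0.38, adjusted p = 0.736 by edgeR). The Pdgfra share of the summed FPKM of both PDGF receptors was 81.4%, 67.5%, 48.8% and 69.2% in KP 5 to KP 8 and 45.6%, 30.7% and 45.8% in KPH2 2 to KPH2 4. The groups did not overlap in this share, 66.7 ± 13.5% against 40.7 ± 8.61% (p = 0.057, exact permutation test, adjusted p = 0.13 over 27 shares), and KPH2 1 was at 76.6%. Among the PDGF ligands 0 of 4 passed the test, against 1.96% of all tested genes. Pdgfd, a ligand of PDGFRβ, had a log2 fold change of −0.78 (SE 0.66) and Pdgfc, a ligand of PDGFRα, of −0.32 (SE 0.34), with adjusted p of 0.594 and 0.68 by edgeR.

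Fibroblasts are a main normal source of Pdgfra, so fibroblast and mesenchymal markers were set beside it. Of 10 such markers, among them Dcn and the fibrillar collagens, 2 were higher and 8 lower in KPH2 2 to KPH2 4. Of these 0 passed the test, against 1.96% of all tested genes, and their median log2 fold change was −0.40. Their summed level ran from 19262 to 42101 CPM in KP tumours, was 22142, 30663 and 21959 CPM in KPH2 2 to KPH2 4, and was 27072 CPM in KPH2 1. The groups overlapped in this sum, which is carried mostly by Fn1 and the collagens. Dcn, a proteoglycan of fibroblasts, had a log2 fold change of −1.89 (adjusted p = 0.122 by edgeR), from 361 to 1840 CPM in the KP tumours, 232 to 319 CPM in KPH2 2 to KPH2 4 without overlap, and 386 CPM in KPH2 1. Lum, its relative, was at −2.27 and Thy1, a surface marker of fibroblasts, at −1.20 on the same scale, both with overlapping groups (adjusted p = 0.225 and 0.228 by edgeR). Their part in the Pdgfra result was not tested.

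Among the FGF receptors, Fgfr1 carried nearly the whole level. Fgfr1 (Entrez Gene 14182, chr8:25518759-25575718) was counted at 848, 252, 546 and 321 CPM in the KP tumours and at 461, 417 and 477 CPM in KPH2 2 to KPH2 4, with 294 CPM in KPH2 1. The KPH2 values lay inside the wide KP range, and KP 5 was the highest tumour. Means were 492 ± 269 (SD, n = 4) and 452 ± 30.9 CPM (SD, n = 3), with a log2 fold change of −0.13 (SE 0.39, 95% confidence interval −1.02 to 0.75, adjusted p = 0.898 by edgeR). Fgfr1 made up 96.3 ± 1.68% of the summed FPKM of FGF receptors in KP and 97.3 ± 2.74% in KPH2 2 to KPH2 4.

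Fgfr2 (Entrez Gene 14183, chr7:130162451-130266808), whose isoforms serve epithelium and mesenchyme, was low. It stood at 23.7, 6.71, 13.4 and 4.20 CPM in KP tumours, at 2.65, 3.41 and 0.787 CPM in KPH2 2 to KPH2 4, and at 10.2 CPM in KPH2 1. The 3 KPH2 tumours lay below all KP tumours, and KPH2 1 was inside the KP range. The log2 fold change was −2.40 (SE 0.71, 95% confidence interval −4.02 to −0.77) and did not pass with edgeR (adjusted p = 0.132), whereas DESeq2 gave an adjusted p of 0.00438 over 7 tumours and 0.256 over 8. It was −1.81 without KP 5 and −4.06 with the muscle fibre score as a covariate (adjusted p = 0.164 and 0.42 by edgeR). With KPH2 1 the log2 fold change was −1.47 (adjusted p = 0.409 by edgeR).

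Fgfr4 (Entrez Gene 14186, chr13:55152818-55168759), a receptor of proliferating and regenerating myoblasts, had at most 2 counts in 4 of the 8 tumours. Counts of 2, 38, 1 and 2 in KP 5 to KP 8, 2 in KPH2 1, and 18, 134 and 12 in KPH2 2 to KPH2 4 gave 0.149, 5.31, 0.146 and 0.153 CPM, 0.157 CPM, and 1.65, 13.4 and 1.35 CPM. KP 6 and KPH2 3 stood far above the other tumours of their groups, and the groups overlapped through KP 6. The log2 fold change, 2.01 (SE 1.37, 95% confidence interval −1.13 to 5.16, adjusted p = 0.498 by edgeR), ran from 0.14 without KPH2 3 to 5.08 without KP 6 when each tumour was left out in turn, and was −1.15 with the muscle fibre score as a covariate over all 8 tumours.

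KP 6 and KPH2 3 also had the most myoblast marker RNA of their groups. The summed level of 8 satellite cell and myoblast markers was 171 CPM in KP 6, the highest of the KP tumours, and 432 CPM in KPH2 3, the highest of all. Vcam1, which endothelial cells also express, carried most of this sum in all 8 tumours. Pax7, the satellite cell factor, was at 2.66 CPM in KP 6 and 4.12 CPM in KPH2 3, against 0 to 0.366 CPM in the other tumours. Myf5, a myogenic determination factor, was at 2.38 CPM in KP 6 and from 0 to 0.149 CPM in the other KP tumours. It was called higher in KPH2 2 to KPH2 4 (48.6, 16.0 and 18.3 CPM, adjusted p = 0.0418 by edgeR) and stood at 0 in KPH2 1. The part of these cells in the receptor levels was not tested.

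The FGF ligands included 6 tested genes of 18, with a median log2 fold change of −1.74, and 1 passed the test, against 1.96% of all tested genes. With KPH2 1 added the median was −1.14 over the FGF ligands then tested, and 0 passed. At an unadjusted p under 0.05, 1 was higher and 4 lower, against 17.8% of all in either direction. Fgf7, a stromal ligand of the epithelial FGFR2 isoform, was counted at 41.9, 71.1, 26.0 and 42.6 CPM in the KP tumours and at 7.31, 3.91 and 6.07 CPM in KPH2 2 to KPH2 4. KPH2 1, at 61.4 CPM, was inside the KP range. Fgf7 fell by 2.99 on the log2 scale (SE 0.39, adjusted p = 0.0181 by edgeR), and with KPH2 1 the log2 fold change was −1.18 (adjusted p = 0.549 by edgeR). With each tumour left out in turn its adjusted p ran from 0.0235 to 0.0516 (edgeR), above the threshold without KPH2 2, and with the muscle fibre score as a covariate it was 0.36.

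In the ERBB family, Egfr was lower in KPH2 2 to KPH2 4 on average, Erbb2 was level and Erbb3 was higher, none past the threshold in the edgeR fit over 7 tumours with the low-count filter. Egfr (Entrez Gene 13649, chr11:16752203-16913907), the receptor for EGF, TGFα and amphiregulin, was counted at 192, 259, 120 and 118 CPM in the KP tumours and at 66.4, 157 and 73.9 CPM in KPH2 2 to KPH2 4, with 181 CPM in KPH2 1. KPH2 3 and KPH2 1 lay among the KP tumours. The log2 fold change was −0.81 (SE 0.40, 95% confidence interval −1.73 to 0.11, adjusted p = 0.34 by edgeR).

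Erbb2 (Entrez Gene 13866, chr11:98412484-98437716), the partner receptor that binds no ligand of its own, was counted at 27.7, 13.6, 24.2 and 14.1 CPM in KP tumours, 18.4, 24.8 and 18.1 CPM in KPH2 2 to KPH2 4 and 26.2 CPM in KPH2 1. The groups overlapped throughout, and the log2 fold change was 0.02 (SE 0.29, 95% confidence interval −0.65 to 0.70, adjusted p = 0.977 by edgeR). A change of more than 0.70 on the log2 scale in either direction lay outside this interval.

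Erbb3 (Entrez Gene 13867, chr10:128567523-128589635), the neuregulin receptor that signals through PI3K, stood at 2.24, 5.87, 1.31 and 2.52 CPM in KP tumours, at 14.8, 18.2 and 9.90 CPM in KPH2 2 to KPH2 4, and at 1.49 CPM in KPH2 1. The 3 KPH2 tumours were all above the KP tumours, of which KP 6 was the highest, and KPH2 1 was within the KP range. Means were 2.99 ± 1.99 CPM (SD, n = 4) and 14.3 ± 4.16 CPM (SD, n = 3). The log2 fold change of 2.26 (SE 0.46, 95% confidence interval 1.19 to 3.32) missed the threshold with edgeR (adjusted p = 0.0523), passed without KP 6 (adjusted p = 0.0329) and passed with no filter on low counts (adjusted p = 0.0345). It also passed with limma on the rlog values (adjusted p = 0.0316) and with DESeq2 (adjusted p = 1.2e-04), but not with DESeq2 over all 8 tumours (adjusted p = 0.0785). The other leave-one-out fits gave adjusted p from 0.0775 to 0.149 (edgeR). An exact permutation test gave p = 0.057 over 7 tumours and p = 0.11 over all 8. With KPH2 1 the log2 fold change was 1.89 (adjusted p = 0.279 by edgeR).

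Because ERBB receptors act in pairs, their shares of the family's summed FPKM were compared as well. Egfr made up 76.7 ± 7.47% of the family in KP and 56.7 ± 7.26% in KPH2 2 to KPH2 4, without overlap. Erbb3 made up between 1.36% and 3.56% in KP 5 to KP 8 and 20.2%, 13.5% and 13.7% in KPH2 2 to KPH2 4. KPH2 1 was near KP for both, at 75.1% for Egfr and 1.12% for Erbb3. For each of these shares an exact permutation test over 7 tumours gave p = 0.029, the smallest it can give, and 0.11 after adjustment over 27 shares. With KPH2 1 the exact permutation p was 0.086 for Egfr and 0.14 for Erbb3. Both shares are parts of the same sum, so a higher Erbb3 share lowers the Egfr share and they are not separate results.

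**Figure D2:**
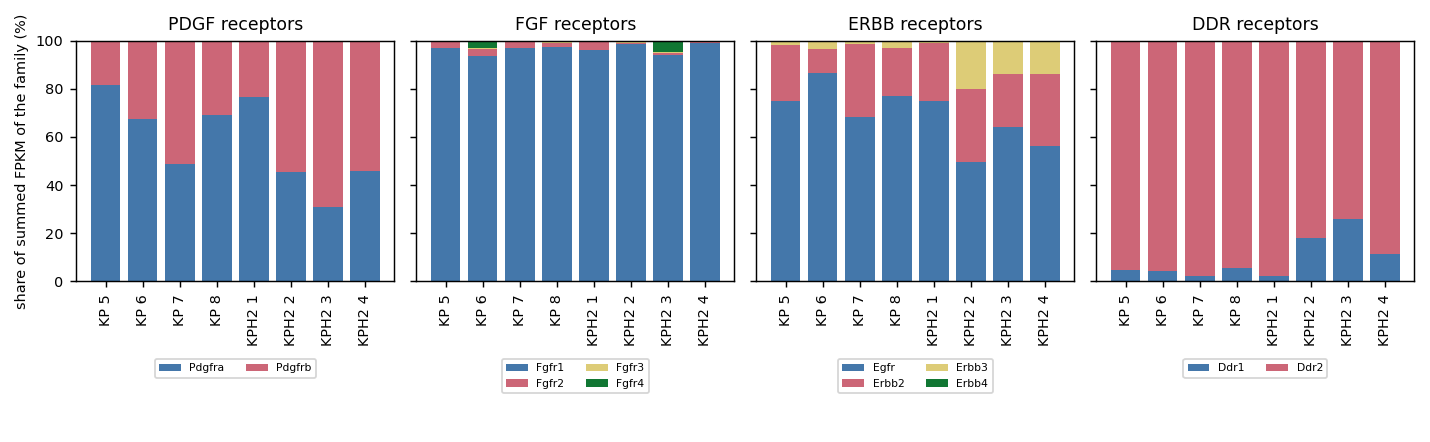
Share (%) of each receptor in the summed FPKM of its family in each of the 8 tumours, for PDGF, FGF, ERBB and DDR receptors, with colours naming the receptors. Erbb3 takes 13.5% to 20.2% of the ERBB level in KPH2 2 to KPH2 4 and at most 3.56% elsewhere, and Fgfr1 takes at least 93.9% of the FGF receptor level in every tumour.

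Skeletal muscle fibres, epithelia and Schwann cells express Erbb3, and their markers were set beside it. All 20 muscle fibre markers were higher in KPH2 2 to KPH2 4, 2 of them past the threshold, where 1.24% of all tested genes passed as higher. Their sum was 12282, 19023 and 4191 CPM there against 1756 to 3280 CPM in KP and 1439 CPM in KPH2 1. The myoblast markers, of which 5 of 6 tested were higher and 2 passed (Myf5 and Vcam1), summed to 375, 432 and 354 CPM in KPH2 2 to KPH2 4, 104 to 171 CPM in KP and 77.6 CPM in KPH2 1. Both lists were higher in the same 3 tumours as Erbb3, and KPH2 1 was lowest in both. With a covariate for the muscle fibre score, Erbb3 had a log2 fold change of 1.97 (adjusted p = 0.628 by edgeR), and over all 8 tumours with that covariate it was 0.60 (adjusted p = 0.83 by edgeR).

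Of 10 epithelial markers, Krt5 and Krt14 were at 0 in all 8 tumours. Of the 3 that were tested, Krt8 and Krt18 passed as higher, where 1.24% of all tested genes passed. The list's sum was 481, 50.5 and 524 CPM in KPH2 2 to KPH2 4, 3.94 to 7.62 CPM in KP and 58.1 CPM in KPH2 1. In KPH2 2 to KPH2 4 the sum was nearly all Krt8 and Krt18, and in KPH2 1 nearly all Krt18, at 55.1 CPM, with Krt8 at 1.41 CPM. Epcam, a surface protein that defines epithelia, was at most 1.42 CPM, in KP 5, and Esrp1, an epithelial splicing factor, at most 0.274 CPM in any tumour. The 8 Schwann cell markers summed to 67.7, 63.5 and 76.4 CPM in KPH2 2 to KPH2 4 and 78.8 to 126 CPM in KP tumours, and Sox10 was at most 0.897 CPM in any tumour. Over 7 tumours the muscle fibre score did not overlap between the groups, at 4.05 to 5.28 in KP and 5.44 to 7.80 in KPH2 2 to KPH2 4. The fit with that covariate therefore cannot tell the score from the group. The part of muscle fibres, myoblasts and the keratin genes in the Erbb3 values was not tested.

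**Figure D3:**
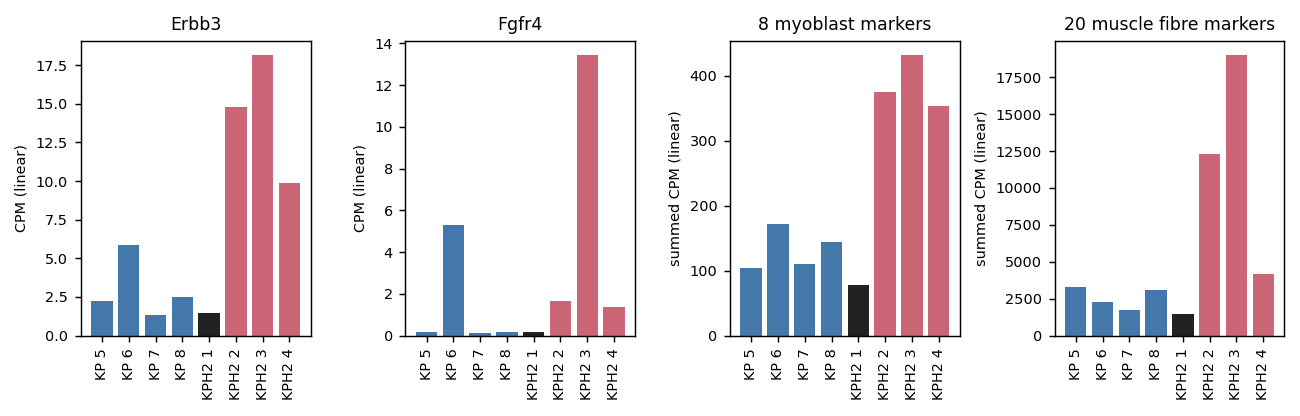
Levels of Erbb3 and Fgfr4 (CPM, linear) beside the summed CPM of 8 myoblast and of 20 muscle fibre markers, 1 bar per tumour, with KP in blue, KPH2 1 in black and KPH2 2 to KPH2 4 in red. KPH2 3 has the highest bar in all 4 panels, and KP 6 is the highest KP tumour for Erbb3, Fgfr4 and the myoblast markers but not for the fibre markers.

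The EGF and neuregulin ligands had 0 of 8 tested genes past the threshold with edgeR, against 1.96% of all tested genes, and a median log2 fold change of 0.43. At an unadjusted p under 0.05 there was 1 of the 8, against 17.8% of all tested genes. Tgfa, a ligand of EGFR, had the smallest p of the list. It was at 0.747, 1.40, 0.875 and 1.53 CPM in KP tumours, 1.92, 2.91 and 11.8 CPM in KPH2 2 to KPH2 4 and 0.862 CPM in KPH2 1. Its log2 fold change was 2.26 (SE 0.65, adjusted p = 0.124 by edgeR), and KPH2 4 was the tumour with the high value. Without KPH2 4 it was 1.06 (adjusted p = 0.39 by edgeR), and with DESeq2 over 7 tumours it was 2.28 and passed (adjusted p = 0.0165), though not over 8 (adjusted p = 0.129). Egf itself had a log2 fold change of 0.74 (SE 0.35, adjusted p = 0.316 by edgeR).

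The RNA of MET, the receptor for hepatocyte growth factor that drives scattering and invasion of cells, was somewhat higher in KPH2 without passing the test. Met (Entrez Gene 17295, chr6:17463349-17573980) was counted at 198, 95.0, 148 and 179 CPM in KP tumours, 304, 187 and 244 CPM in KPH2 2 to KPH2 4 and 190 CPM in KPH2 1. KPH2 3 and KPH2 1 lay below KP 5, so the groups overlapped. Means were 155 ± 45.0 (SD, n = 4) and 245 ± 58.5 CPM (SD, n = 3), with a log2 fold change of 0.65 (SE 0.26, 95% confidence interval 0.06 to 1.24, adjusted p = 0.238 by edgeR). The direction was the same in all 18 alternative fits, with log2 fold changes from 0.42 to 0.81. As a share of the summed FPKM of the 10 receptors, Met took 3.92 ± 0.542% in KP and 7.34 ± 2.48% in KPH2 2 to KPH2 4 without overlap, and 6.26% in KPH2 1, above every KP tumour (p = 0.029 over 7 and over 8 tumours by exact permutation, adjusted 0.11 over 27 shares for 7 tumours). That share also depends on the lower Pdgfra level in the same sum. Hgf, the ligand, had a log2 fold change of −0.59 (SE 0.45, adjusted p = 0.556 by edgeR).

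Axl (Entrez Gene 26362, chr7:25756500-25788924), the highest of the receptors per kilobase, was counted at 921, 735, 806 and 1232 CPM in KP tumours, 856, 1087 and 1378 CPM in KPH2 2 to KPH2 4, and 716 CPM in KPH2 1, the lowest of the 8. The groups overlapped, with a log2 fold change of 0.25 (SE 0.23, 95% confidence interval −0.28 to 0.79, adjusted p = 0.628 by edgeR). Axl made up 90.0 ± 3.30% of the summed FPKM of the TAM receptor family in KP and 91.9 ± 1.65% in KPH2 2 to KPH2 4.

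Gas6, the vitamin K-dependent ligand of AXL, was lower in KPH2. It was counted at 74.8, 74.9, 96.0 and 106 CPM in KP tumours, 40.9, 52.2 and 48.7 CPM in KPH2 2 to KPH2 4 and 36.5 CPM in KPH2 1. All 4 KPH2 tumours lay below all 4 KP tumours, which held for Pdgfra and Epas1 as well. Gas6 fell by 0.91 on the log2 scale (SE 0.18, adjusted p = 0.0491 by edgeR), and with KPH2 1 the log2 fold change was −0.98 (adjusted p = 0.103 by edgeR). It was 1 of 4 MET and TAM ligands to pass, against 1.96% of all tested genes. At an unadjusted p under 0.05, 0 of the 4 were higher and 2 lower, against 17.8% of all in either direction. For Gas6, leaving out each tumour in turn gave an adjusted p from 0.0438 to 0.162 (edgeR), under 0.05 without KP 5 alone. It was 0.0503 with median-of-ratios size factors in place of TMM and 0.528 with the muscle fibre score as a covariate (edgeR), and DESeq2 over all 8 tumours gave 4.6e-04. Macrophages are a source of Gas6, and 9 of 9 macrophage markers were lower, 0 of them called, with sums of 1585, 2191 and 2334 CPM in KPH2 2 to KPH2 4, 2115 to 3995 CPM in KP and 2036 CPM in KPH2 1. Their part in the Gas6 result was not tested.

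The RNA of DDR2, the fibrillar collagen receptor of mesenchymal cells, was level between the groups. Ddr2 (Entrez Gene 18214, chr1:169972307-170110836) was counted at 687, 388, 603 and 748 CPM in KP tumours, 465, 427 and 721 CPM in KPH2 2 to KPH2 4 and 653 CPM in KPH2 1, with full overlap and a log2 fold change of −0.18 (SE 0.27, 95% confidence interval −0.80 to 0.43, adjusted p = 0.781 by edgeR). Its sister Ddr1, the collagen receptor of epithelia, rose. Ddr1 was at 16.6, 8.52, 6.27 and 20.9 CPM in KP tumours, 49.7, 72.6 and 44.4 CPM in KPH2 2 to KPH2 4 and 6.82 CPM in KPH2 1, which was within the KP range. Its log2 fold change was 2.06 (SE 0.40, adjusted p = 0.0456 by edgeR) over 7 tumours and 1.71 (adjusted p = 0.277 by edgeR) over 8, and leaving out each tumour in turn gave adjusted p from 0.0467 to 0.124 (edgeR), under 0.05 without KP 8 alone. Adding the muscle fibre score to the fit gave Ddr1 a log2 fold change of 1.11 (adjusted p = 0.584 by edgeR), and 0.42 over all 8 tumours. The sums of muscle fibre and myoblast markers, and Krt8, were above KP in the same 3 KPH2 tumours. Krt18 was above KP in all 4 KPH2 tumours, at 55.1 CPM in KPH2 1. Over 7 tumours the muscle fibre score did not overlap between the groups, so that fit cannot tell the score from the group. The part of these markers in the Ddr1 values was not tested. Ddr2 went from 95.9 ± 1.44% to 81.6 ± 7.33% of the summed FPKM of both genes, without overlap (p = 0.029 by exact permutation, adjusted 0.11 over 27 shares), and was 97.9% in KPH2 1. Ddr1 was the 1 gene called among 35 tested of 45 other receptor tyrosine kinases, whose median log2 fold change was 0.01, against 1.96% of all tested genes. At an unadjusted p under 0.05, 8 of these 35 were higher and 7 lower, against 17.8% of all tested genes in either direction. Of the 6 collagen genes taken as DDR ligands, 0 passed, with a median of −0.09, and Col2a1 and Col1a2 had the smallest p at log2 fold changes of 1.01 (SE 0.80) and −0.67 (SE 0.53), both with an adjusted p of 0.567 by edgeR.

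**Figure D4:**
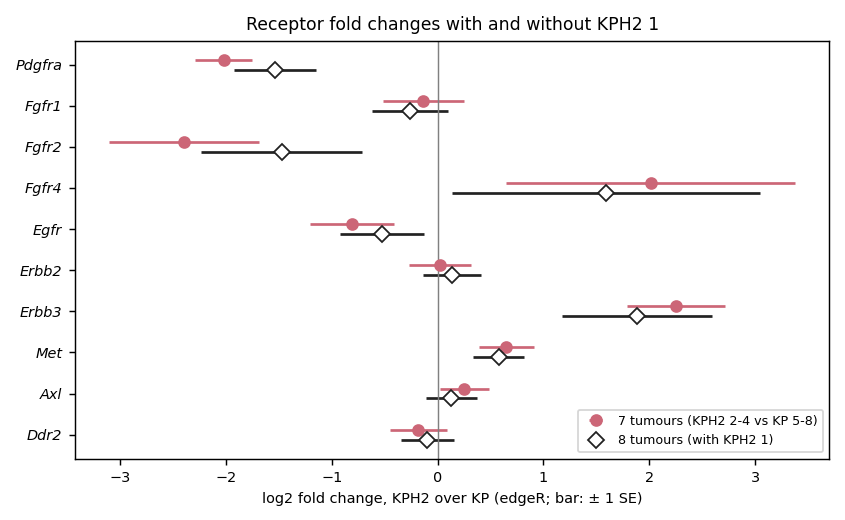
Log2 fold change of each receptor gene, KPH2 over KP, with bars of 1 SE from edgeR, over 7 tumours (red circles) and with KPH2 1 added (open diamonds). Adding KPH2 1 moves Pdgfra from −2.02 to −1.54, Fgfr2 from −2.40 to −1.47 and Erbb3 from 2.26 to 1.89, each toward 0.

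Of the co-receptors and binding proteins 9 of 12 were tested, and 2 passed, both as higher, where 1.24% of all tested genes passed. They were the heparan sulphate syndecans Sdc1 and Sdc4, which hold FGF and HGF at the cell surface. Sdc1 was at 33.9, 25.4, 36.6 and 42.2 CPM in KP tumours, 62.7, 110 and 85.5 CPM in KPH2 2 to KPH2 4 and 44.2 CPM in KPH2 1. Sdc4 was at 136, 142, 98.1 and 140 CPM in KP tumours, 301, 201 and 274 CPM in KPH2 2 to KPH2 4 and 119 CPM in KPH2 1. KPH2 1 lay just above the KP tumours for Sdc1 and among them for Sdc4. The log2 fold changes were 1.30 (SE 0.23, adjusted p = 0.0354) for Sdc1 and 0.99 (SE 0.19, adjusted p = 0.0418) for Sdc4, by edgeR. With each tumour left out in turn the adjusted p of Sdc1 ran from 0.0508 to 0.0895 and that of Sdc4 from 0.0412 to 0.144 (edgeR), and with KPH2 1 they were 0.155 and 0.243. Sdc4 stayed under 0.05 without KPH2 3 alone and Sdc1 in no such fit, and with the muscle fibre score as a covariate the adjusted p was 0.525 for Sdc1 and 0.442 for Sdc4 (edgeR).

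**Figure D5:**
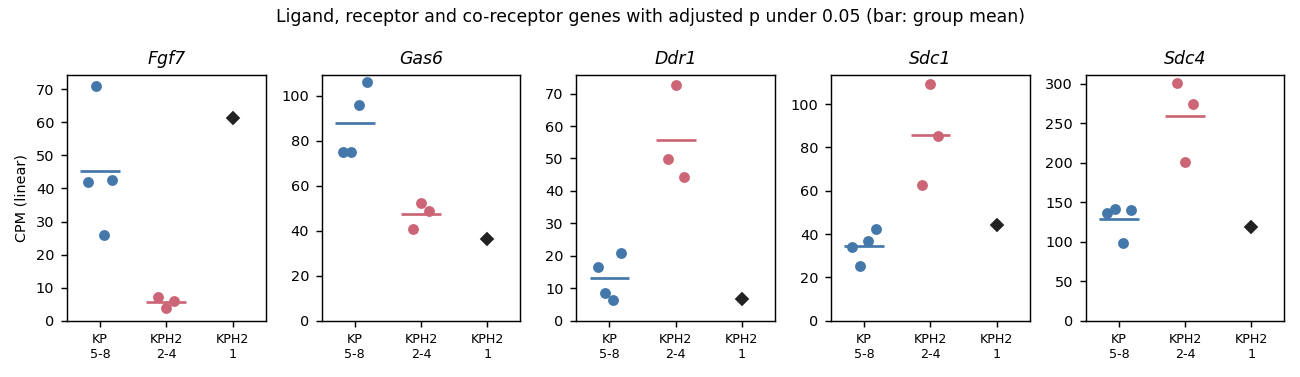
Level in CPM (linear axis from 0) of the 5 genes among ligands, other receptors and co-receptors that passed an adjusted p of 0.05, by tumour, with KP in blue, KPH2 2 to KPH2 4 in red, KPH2 1 as a black diamond and a bar at each group mean. KPH2 2 to KPH2 4 are apart from KP for all 5, whereas KPH2 1 is within or next to the KP range for Fgf7, Ddr1, Sdc1 and Sdc4 and lowest of all for Gas6.

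Downstream of the receptors no gene in the lists passed with edgeR over 7 tumours with robust estimates. Of 26 adaptors and proximal effectors 24 were tested, 0 were called by edgeR, 1 had an unadjusted p under 0.05, and the median log2 fold change was −0.01. That gene, Pik3r2, a regulatory subunit of PI3K, had a log2 fold change of 0.73 (SE 0.21, adjusted p = 0.125 by edgeR). Next in the list was Plcg2, a phospholipase, at −0.40 (SE 0.19, adjusted p = 0.318 by edgeR). Of 25 feedback inhibitors 23 were tested, 0 were called by edgeR, 4 had an unadjusted p under 0.05, 2 in each direction, and the median was 0.04. Of all tested genes 17.8% had an unadjusted p under 0.05, so the count of feedback inhibitors was near that share and the count of adaptors below it. Lrig3, a membrane protein of the LRIG family that restrains receptors, had the smallest p. It stood at 56.6, 40.4, 34.4 and 27.7 CPM in KP tumours, 14.4, 4.32 and 10.9 CPM in KPH2 2 to KPH2 4, and 37.8 CPM in KPH2 1. Its log2 fold change was −2.02 (SE 0.42, adjusted p = 0.0554 by edgeR). Lrig3 passed with DESeq2 over 7 tumours (adjusted p = 6.5e-05, and 0.205 over 8), with limma on the rlog values (0.0353) and with edgeR without robust estimates (0.0499), and with KPH2 1 it was at −1.22 (adjusted p = 0.36 by edgeR). The log2 fold change of Spred2, an inhibitor of RAS to RAF signalling, was 0.57 (SE 0.21, adjusted p = 0.208 by edgeR).

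The placing of KPH2 1 bears on all of these values. Among the receptor genes, KPH2 1 was inside the KP range for 8 of 10, against 52.8% of all tested genes. Pdgfra and Axl were the genes for which it was outside the KP range, below it in both cases. Over all 8 tumours edgeR called 0 of the 10 receptor genes, against 1 gene or 0.00675% of all tested, and at an unadjusted p under 0.05 it called 3 of 10, against 14.7%. Groups did not overlap for 3 of the 10 over 7 tumours (Pdgfra, Fgfr2 and Erbb3), against 16.8% of all tested genes, and for 1 of the 10 over 8 tumours (Pdgfra), against 8.15%.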

How the data were processed

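Stranded, ribosomal RNA-depleted libraries were made from FFPE sections of 8 tumours. Per the study's methods and submitters' processing notes, the authors used CASAVA 1.8.2, ran STAR 2.4 against GRCm38 and assigned uniquely aligned reads to RefSeq genes using HTSeq 0.6.1. The deposited counts are whole numbers, not normalised. The authors also deposited log2 values from the regularised log transformation of DESeq2 1.6 (rlog), over 7 and over 8 tumours, in which low counts are shrunk. All per-sample columns belonged to these samples. The strand setting of the counting is not given in the sources used here, so reads of genes overlapping Pdgfra, Fgfr1, Egfr, Erbb2 and Ddr2 on the other strand may be included.

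Counts were tested in R 4.3.3 with edgeR 4.0.16 (TMM, minimum count 10, minimum total 15, robust quasi-likelihood test, no covariates), KP 5 to KP 8 against KPH2 2 to KPH2 4, p-values being adjusted by Benjamini-Hochberg over the 14867 genes tested, with a threshold of 0.05. Over all 8 tumours 14805 genes were tested. CPM used TMM library sizes over all 8 tumours, and log2 CPM for permutation tests had a prior count of 2. FPKM divided CPM by the exon length of the transcripts of GENCODE that match RefSeq on GRCm38. Exact permutation tests used the 35 splits of 7 tumours or the 35 distinct splits of 8. The labels do not say how tumours were assigned to library or extraction runs, and p-values cover the spread between these tumours only. The scripts were tested on simulated data.

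Named are the 10 receptor genes, Epas1, and from each pathway list every called gene or, where none was called, at most the 2 with the smallest p. Rn45s, Hgf, Pdgfrb, Pax7, Myf5, Vcam1, Krt5, Krt14, Krt8, Krt18, Krt19, Epcam, Esrp1, Cdh1, Cldn4, Grhl2, Dcn, Lum, Thy1, Fn1 and Sox10 were named after their values were seen. A marker gene and an allele common to both groups are not reported here. The receptor genes and lists were chosen with earlier results of these data known. Alternatives were other scalings and filters, edgeR without robust estimates, DESeq2 1.42.0, limma 3.58.1 on the rlog values, a muscle fibre score as a covariate and leaving out each tumour. Over 7 tumours that score did not overlap between the groups, so the fit with it cannot tell the score from the group. DESeq2 and the muscle score over all 8 tumours were added after seeing the data.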

Additional observations from a re-analysis of the deposited data

Results flagged for a closer look

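For Epas1 and the 10 receptor genes, 22 groups of 4 tumours were examined, those of KPH2 with KPH2 1 included. In 4 of them 1 tumour stood further from the other 3 than Dixon's test of the gap over the range allows. For normally distributed values chance gives about 1 in 20 groups, a rate that need not hold for CPM on a linear scale. Epas1 was at 59.6 CPM in KP 5, below the other KP tumours. Pdgfra was at 627 CPM in KPH2 1, above the other KPH2 tumours. Fgfr4 was at 5.31 CPM in KP 6 and at 13.4 CPM in KPH2 3, each above the rest of its group.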

How the results depend on the processing

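No paired analysis was possible because the KP and KPH2 tumours share no replicate number. The 292 genes called became 1 with all 8 tumours, 1175 with DESeq2, 3 with the muscle score as a covariate, 648 with DESeq2 over all 8 tumours and 0 with edgeR, the muscle score and all 8 tumours (1672 at an unadjusted p under 0.05). Leaving out each tumour in turn gave 55 to 349 genes. The 1 receptor gene called became 0 with all 8 tumours, 2 with no filter, 3 with DESeq2, 2 with limma on rlog values, and 0 with the muscle score over 7 or 8 tumours by edgeR, and 0 to 2 when each tumour was left out (0 without KPH2 2, 2 without KP 6). Pdgfra kept its direction in all 18 alternatives, at −2.40 to −1.27, and its call in 14. Its adjusted p was 0.327 with the muscle score over 8 tumours (edgeR) and 0.00491 with DESeq2 over 8.

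Some uncalled log2 fold changes changed sign. Fgfr1 was at 0.0071 with limma on rlog values and ran from −0.35 to 0.27 with each tumour left out, positive without KP 5. Erbb2 was at −0.29 with the muscle score and ran from −0.14 to 0.24 with each tumour left out, negative without KP 6, KP 8 or KPH2 3. Ddr2 was at 0.024 with the muscle score and 0.039 with it over 8 tumours, where Axl was at −0.0087 and Fgfr4, 2.01 over 7 tumours, at −1.15. The cause of these changes was not tested. The share of higher calls, 63.4% with edgeR, was 52.3% with DESeq2, 41.2% with DESeq2 over 8 tumours, 52.4% without KP 5, 78.2% without KPH2 2 and 81.7% without KPH2 4. Changes of scaling kept the receptor call, lost that of Gas6 with median-of-ratios size factors (adjusted p = 0.0503, edgeR) and left the median of all genes within 0.1. Counts under 3 in 4 of 8 tumours limit what can be said of Fgfr4.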
